A study of Mus musculus with 24 samples.

Results

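The 10 genes described here encode enzymes of triglyceride synthesis: Gpam, Agpat1, Agpat2, Agpat3, Lpin1, Lpin2, Lpin3, Mogat1, Dgat1 and Dgat2. Their probes were taken by gene name from the array annotation. The genes themselves were chosen with earlier results of these data known. The array carried 25 probes for them, of which 23 gave a signal above background on enough arrays to be kept, so that all 10 genes were among the 23966 genes tested. Gene expression was measured in the livers of 24 male wild-type C57Bl/6J mice aged 8 weeks, 1 array per mouse, and no group had a genetic change. There were 4 groups of 6 mice. Fasted mice had no food for 24 h. Glucose mice and fructose mice ate a standard chow (Safe 04) and drank tap water with 20% glucose or 20% fructose for 24 h. Water mice ate the same chow and drank plain tap water. All mice were killed at ZT16, in the dark phase, so the data hold 1 time of day, 1 sex and 1 strain.

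In the glycerol phosphate pathway, a mitochondrial or microsomal acyltransferase joins the first fatty acid to glycerol phosphate, and an AGPAT enzyme joins the next to give phosphatidate. Lipins remove the phosphate to give diacylglycerol, and DGAT enzymes add the last fatty acid. Diacylglycerol is also made from monoacylglycerol by MOGAT enzymes, and both phosphatidate and diacylglycerol are drawn off for phospholipids. In liver the finished triglyceride is stored in droplets or exported in very low density lipoprotein. Lipin 1 is known to act in the nucleus too, where it works with PGC-1alpha and PPARalpha on genes of fatty acid oxidation.

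Each level below is the log2 intensity of a gene's brightest kept probe minus the 75th percentile of that array, so 0 is the 75th percentile and a step of 1 is a 2-fold difference. Levels of different genes come from different probes and are not compared. Differences are log2 fold changes from limma with their standard errors, and a gene was called where its Benjamini-Hochberg adjusted p over all 23966 genes was under 0.05. A p-value here weighs a difference of group means against the spread between mice of 1 experiment, estimated over all 4 groups.

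The promoters below are printed because their genes were called in different comparisons: Lpin1, Lpin2 and Mogat1 were higher in fasted than in water livers, and Gpam was higher in glucose than in water livers. Each is the 250 bases before an annotated start, from RefSeq on GRCm38.p6, 5′ to 3′ on the strand of the gene, with motif matches in capitals. RefSeq promoters were found for 8 of the 10 genes, 13 promoters in all, and none was found for Dgat1 or Dgat2. Promoter 2 of Lpin2 and the promoters of Agpat1, Agpat2, Agpat3 and Lpin3 were searched but are not printed.
Lpin1 promoter 1, chr12:16610967-16611216 (- strand): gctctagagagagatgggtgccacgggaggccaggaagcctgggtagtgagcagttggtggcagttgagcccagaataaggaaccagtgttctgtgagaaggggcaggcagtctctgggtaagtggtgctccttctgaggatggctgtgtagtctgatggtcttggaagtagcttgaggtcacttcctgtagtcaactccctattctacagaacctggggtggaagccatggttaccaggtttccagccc
Lpin2 promoter 1, chr17:71183282-71183531 (+ strand): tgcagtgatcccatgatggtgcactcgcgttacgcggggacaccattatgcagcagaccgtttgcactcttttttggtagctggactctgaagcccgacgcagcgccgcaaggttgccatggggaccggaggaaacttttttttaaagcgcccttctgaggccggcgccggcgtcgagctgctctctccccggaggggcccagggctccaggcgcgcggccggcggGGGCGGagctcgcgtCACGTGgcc
Lpin2 promoter 3, chr17:71204404-71204653 (+ strand): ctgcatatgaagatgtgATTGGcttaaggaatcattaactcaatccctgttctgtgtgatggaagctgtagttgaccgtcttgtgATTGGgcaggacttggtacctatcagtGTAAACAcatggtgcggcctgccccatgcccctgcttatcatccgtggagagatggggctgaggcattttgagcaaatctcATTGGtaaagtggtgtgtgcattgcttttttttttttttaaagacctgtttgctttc
Mogat1 promoter 1, chr1:78510810-78511059 (+ strand): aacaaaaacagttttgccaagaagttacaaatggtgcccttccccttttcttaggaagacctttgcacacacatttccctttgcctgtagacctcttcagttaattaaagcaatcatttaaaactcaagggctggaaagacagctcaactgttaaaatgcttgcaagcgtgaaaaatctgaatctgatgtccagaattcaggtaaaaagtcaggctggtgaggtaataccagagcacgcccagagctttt
Gpam promoter 1, chr19:55099478-55099727 (- strand): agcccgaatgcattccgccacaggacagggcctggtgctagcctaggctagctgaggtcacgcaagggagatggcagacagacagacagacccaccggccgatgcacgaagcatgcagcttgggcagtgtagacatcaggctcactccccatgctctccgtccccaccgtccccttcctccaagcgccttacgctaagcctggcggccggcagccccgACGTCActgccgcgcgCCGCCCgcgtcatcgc
Gpam promoter 2, chr19:55127239-55127488 (- strand): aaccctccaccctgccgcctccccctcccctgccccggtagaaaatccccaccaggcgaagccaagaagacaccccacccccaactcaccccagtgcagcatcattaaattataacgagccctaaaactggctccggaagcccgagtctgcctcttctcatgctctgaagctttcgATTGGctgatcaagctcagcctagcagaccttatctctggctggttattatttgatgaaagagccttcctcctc
The motifs searched on both strands were an E-box (CACGTG), a FOXO site (TGTTTAC), a CRE (TGACGTCA) and its shorter form (TGACGT), an SRE-1 core (TCACNCCAC), a DR1 (a pair of AGGTCA separated by 1 base), a GRE (AGAACA and TGTTCT separated by 3 bases), a D-box (TTATGTAA), a CCAAT box (CCAAT) and a GC box (GGGCGG). The shorter CRE form lies within the CRE, and the others can overlap where their letters allow. Promoter 1 of Lpin2 held an E-box whose first base lay 9 bases before the start, a match that 6.02% of 32851 RefSeq mouse promoters also have, and a GC box 24 bases before it. Promoter 3 of Lpin2 held a FOXO site on the opposite strand 138 bases before the start, found in 3.17% of promoters, and 3 CCAAT boxes. The first Gpam promoter held the shorter CRE form on the opposite strand 32 bases before the start (6.47% of promoters) and a GC box, and the second held a CCAAT box 74 bases before it. CCAAT boxes occur in 33.8% and GC boxes in 32.7% of promoters. The printed Lpin1 and Mogat1 windows held none of the 10 motifs. No CRE, SRE-1 core, DR1, GRE or D-box was found in any of the 13 promoters, and these occur in 1.55%, 1.05%, 0.0335%, 0.00913% and 0.819% of all promoters, in that order. A match is a run of letters and no evidence of binding.

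A probe of Dgat1 and one of Lpin2 align to the genome in pieces, over a stretch longer than the probe, and are shown in full because both genes were higher in fasted livers. The first lies in mm9 within chr15:76333128-76333274 on the minus strand, and the second within chr17:71595823-71596189 on the plus strand.
Dgat1 probe: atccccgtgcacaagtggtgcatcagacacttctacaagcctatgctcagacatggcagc
Lpin2 probe, the third brightest: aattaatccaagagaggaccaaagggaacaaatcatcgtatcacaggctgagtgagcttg

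Arrays had between 32516 and 36274 probes well above background, and correlations between arrays were 0.985 or more within a group. The liver label held in every group: albumin (Alb) averaged 10.09 ± 0.08 in fasted, 10.08 ± 0.06 in glucose, 9.93 ± 0.07 in fructose and 10.14 ± 0.10 in water livers (SD, n = 6 each). One fasted liver, replicate 2, stood apart within its group. It was the lowest of its 6 in 6 of the 10 genes and the highest in Lpin2, and its correlation with the rest of its group was 0.992, the lowest of the 24 arrays. The number of genes called in each comparison with fasted livers was the same without it, at 7 against water, 8 against glucose and 6 against fructose. The arrays lay on 3 slides, each with 2 of every group. Values by slide below are parts of the overall difference and no separate evidence for it.

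Fasting was accompanied by higher transcript levels of all 3 lipins, Agpat3, Dgat1 and Mogat1, and by a lower level of Dgat2. Of the 10 genes, 6 were higher and 1 was lower in fasted than in water livers. Gpam, Agpat1 and Agpat2 did not pass the test. In that comparison 42.6% of all genes tested were called, 20.7% higher and 21.9% lower. For all 7 called genes the fasted and water livers did not overlap, a property of 24.5% of all genes. Their equal sign on all 3 slides follows from that and adds nothing to it. Of all genes, 12% were higher without overlap in fasted than in water livers. Against glucose and fructose livers the shares were 13% and 11.9%. The share above all 3 fed groups at once was not computed. The median log2 fold change was 0.73 over the 10 genes and 0.0059 over all genes. In bulk liver RNA, fewer cells of a type and less RNA per cell cannot be told apart.

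**Figure D1:**
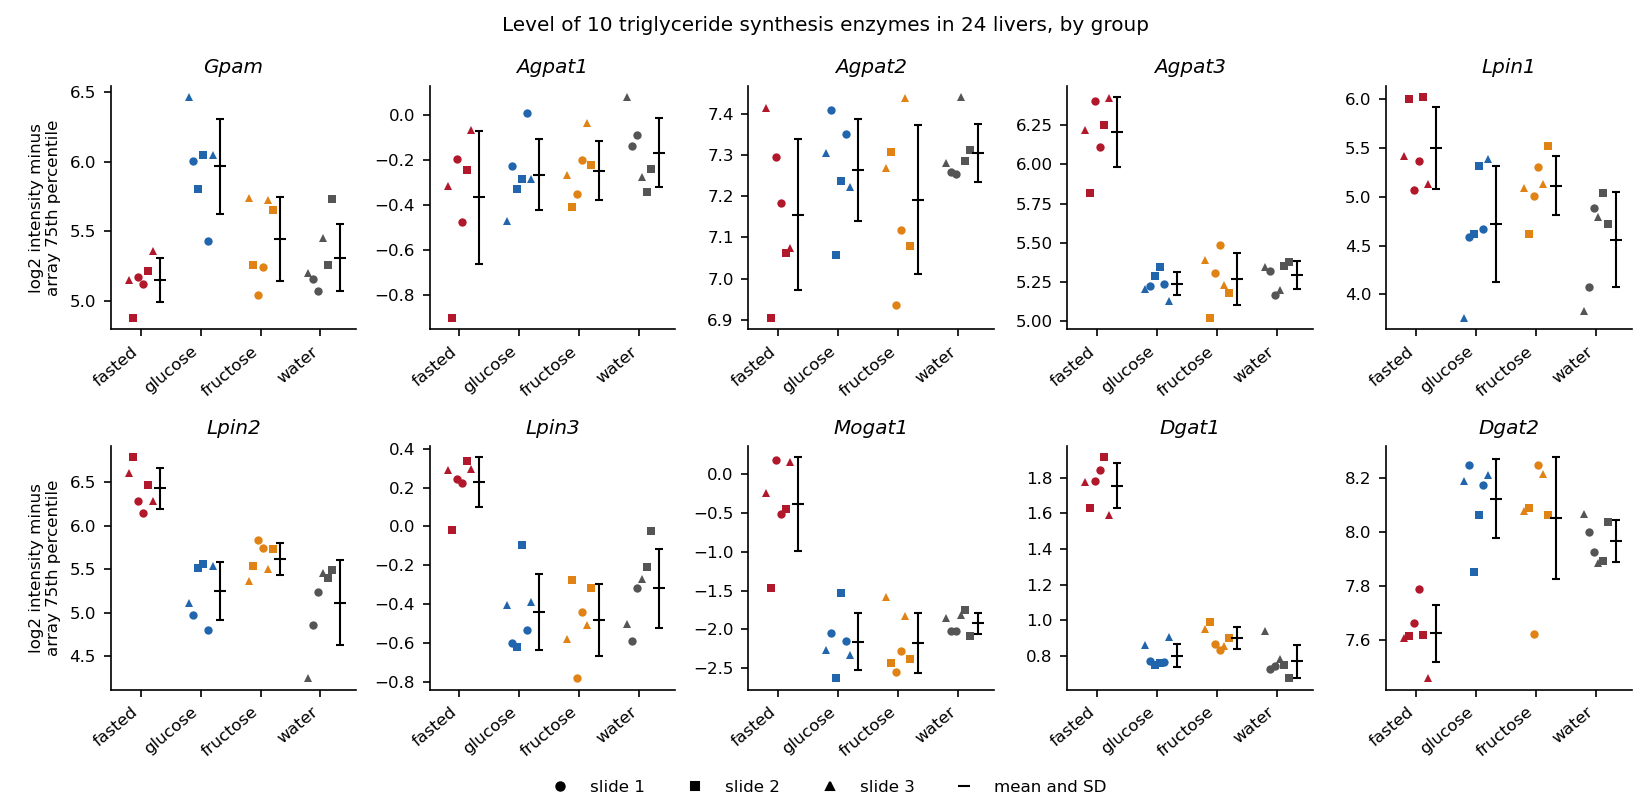
Levels of the 10 genes in 24 livers, as log2 intensity minus the 75th percentile of the array, with 1 point per mouse, shaped by slide, and the mean and SD of each group of 6. Fasted livers lie apart from the other 3 groups in Agpat3, Lpin2, Lpin3, Mogat1 and Dgat1, and glucose livers have the highest Gpam mean. The share of all genes in which fasted livers lie apart from all 3 groups was not computed.

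Gpam makes the mitochondrial glycerol phosphate acyltransferase that starts the pathway. Its brightest probe lies at chr19:55142203-55142262 (mm9, minus strand). The lowest, median and highest levels were 4.87, 5.16 and 5.36 in fasted livers and 5.43, 6.03 and 6.47 in glucose livers. In fructose livers they were 5.04, 5.46 and 5.74, against 5.07, 5.23 and 5.73 in water livers. On this probe glucose livers had the highest Gpam, and all 6 lay above all 6 fasted livers. Fasted, fructose and water livers overlapped on it. In fasted livers the log2 fold change against water was -0.16 ± 0.15 (SE), with a limma adjusted p of 0.432.

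Gpam was the only gene of the set called between a sugar group and water livers. It was 1.58-fold higher in glucose than in water livers, a log2 fold change of 0.66 ± 0.15 (limma, adjusted p = 0.0364). In that comparison 0.901% of all genes were called. The change was positive on each slide, at 0.61, 0.43 and 0.93. The glucose and water livers overlapped, since the lowest glucose liver lay below the highest water liver. The call was lost when any one of 9 arrays was left out (glucose replicates 1, 2, 4 and 6 and water replicates 1 to 5), where the log2 fold change stayed between 0.56 and 0.77 over all 24 omissions. A dimmer Gpam probe, at chr19:55145403-55145462, was also called higher with glucose, with a 95% interval of 0.63 to 1.58 on the log2 scale (adjusted p = 0.0209 over all kept probes). It was 0.59 ± 0.23 higher with fructose, which was not called (adjusted p = 0.210).

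Set directly against each other, fructose and glucose livers gave a Gpam log2 fold change of -0.52 ± 0.15 for fructose over glucose. It did not pass the limma test over all genes (adjusted p = 0.452). By slide it was -0.58, -0.47 and -0.52, from the same arrays. The difference had a 95% interval of -0.84 to -0.21, which is for 1 gene and not adjusted over all genes. None of the 23966 genes was called between fructose and glucose livers, so 0% is the background there. Of the other settings tried, 5 called between 1 and 6 genes in that comparison, none of them among the 10.

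Agpat1, Agpat2 and Agpat3 encode acyltransferases of the next step, and of these only Agpat3 was called in any of the 6 comparisons. Agpat1 and Agpat2 are the enzymes best known for making phosphatidate, and loss of AGPAT2 in people causes a generalised lipodystrophy. Agpat3 prefers polyunsaturated fatty acids and also acts on lysophospholipids. Agpat3, read at chr10:77736356-77736415 (mm9, minus strand), had levels of 5.82, 6.24 and 6.42 (lowest, median, highest) in fasted livers. They were 5.13, 5.23 and 5.35 in glucose livers, 5.02, 5.27 and 5.48 in fructose livers and 5.17, 5.33 and 5.38 in water livers. Every fasted liver lay above every fed liver, and the 3 fed groups overlapped. The fasted over water fold was 1.88 (log2 fold change 0.91 ± 0.09, limma adjusted p = 1.5e-08). The second Agpat3 probe gave 0.75 ± 0.05.

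For Agpat1, read at chr17:34750307-34750366 (mm9, plus strand), the medians were -0.28 in fasted, -0.29 in glucose, -0.25 in fructose and -0.19 in water livers. All 4 groups overlapped, with -0.90 as the lowest level of any fasted liver and 0.08 as the highest level of any water liver. The fasted over water difference was -0.20 ± 0.11 (limma adjusted p = 0.162). Agpat2, read at chr2:26448610-26448669 (mm9, minus strand), had medians of 7.13, 7.27 and 7.19 in fasted, glucose and fructose livers and 7.28 in water livers. These groups overlapped too. Its fasted over water difference was -0.15 ± 0.09 (limma adjusted p = 0.176), with a 95% interval of -0.33 to 0.03. Whether Agpat2 was called lower in fasted than in water livers depended on the scaling and on the probe. Quantile normalization gave -0.28 (limma adjusted p = 0.0068), and the second Agpat2 probe gave -0.24 under the 75th percentile scaling (adjusted p = 0.0247). That probe has 60 bases, but its stated position spans 27. It was not called in fasted over glucose (adjusted p = 0.0988) or fasted over fructose livers (0.211).

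All 3 lipin transcripts were higher in fasted than in water livers, by 1.92-fold for Lpin1, 2.49-fold for Lpin2 and 1.46-fold for Lpin3. Lipins are the phosphatidate phosphatases that make diacylglycerol. Lpin1 is the main form in fat and muscle and is known to be induced in fasted liver, while Lpin2 is the main lipin protein of liver. Lpin3 is best known in intestine and is also present in liver.

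Lpin2, read at chr17:71598998-71599057 (mm9, plus strand), had levels of 6.15, 6.38 and 6.79 (lowest, median, highest) in fasted livers. In glucose livers they were 4.80, 5.31 and 5.56, and in fructose livers 5.36, 5.64 and 5.84. Water livers had 4.24, 5.32 and 5.49. Fasted livers were above all 18 fed livers, and the fed groups overlapped. The log2 fold change for fasted over water was 1.32 ± 0.18 (limma adjusted p = 3.3e-06), and it was 1.17, 1.18 and 1.60 on the 3 slides. All 6 Lpin2 probes were called higher, with log2 fold changes of 1.32, 1.22, 1.74, 1.36, 0.62 and 0.69 in order of brightness. The largest value, 1.74, came from the probe printed above.

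Lpin1, read at chr12:16543023-16543082 (mm9, minus strand), had SDs of 0.42 in fasted, 0.59 in glucose, 0.30 in fructose and 0.49 in water livers. Its levels were 5.07, 5.39 and 6.02 (lowest, median, highest) in fasted livers and 3.76, 4.64 and 5.38 in glucose livers. They were 4.62, 5.11 and 5.52 in fructose livers, against 3.83, 4.76 and 5.04 in water livers. Fasted livers lay above all water livers but overlapped glucose and fructose livers. Against water the log2 fold change was 0.94 ± 0.26 (limma adjusted p = 0.0043). It was 0.78 ± 0.26 against glucose (adjusted p = 0.0158) and 0.39 ± 0.26 against fructose (adjusted p = 0.233), where Lpin1 was not called. Of the 4 Lpin1 probes, 3 were called higher in fasted than in water livers, at 0.94, 0.99 and 0.75, and the dimmest gave 0.49 (adjusted p = 0.0518).

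Lpin3, read at chr2:160731469-160731528 (mm9, plus strand), had levels of -0.02, 0.27 and 0.34 (lowest, median, highest) in fasted livers. In the fed groups they were -0.62, -0.47 and -0.10 with glucose, -0.78, -0.47 and -0.28 with fructose and -0.59, -0.29 and -0.02 with water. All 6 fasted livers were above the fed livers, with the lowest fasted liver, replicate 2, just above the highest water liver. The log2 fold change for fasted over water was 0.55 ± 0.10 (limma adjusted p = 0.000147). The second Lpin3 probe was above background on 1 of 24 arrays and was not used.

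**Figure D2:**
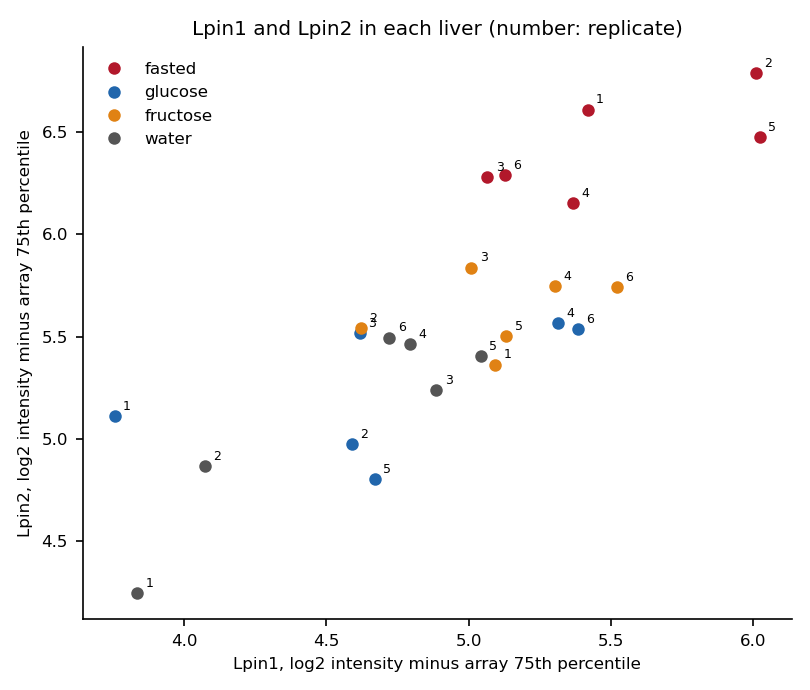
Lpin2 (vertical) against Lpin1 (horizontal) in each of 24 livers, both as log2 intensity minus the 75th percentile of the array, coloured by group and numbered by replicate. All fasted livers lie above the others in Lpin2, and water replicate 1 has the lowest Lpin2 (4.24) together with a low Lpin1 (3.83).

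Within the water group, the liver lowest in Lpin1 was also the lowest in Lpin2 (replicate 1, at 3.83 and 4.24), and replicate 2 was next in both (4.07 and 4.86). The other 4 water livers lay between 4.72 and 5.04 in Lpin1 and between 5.24 and 5.49 in Lpin2. In the glucose group, replicates 4 and 6 were the highest 2 in both genes, while the lowest Lpin1 (3.76, replicate 1) went with the third lowest Lpin2 (5.11). Without water replicate 1 the Lpin2 difference of glucose over water was -0.04, against 0.13 with it, and neither was called.

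Mogat1 had the widest range of group means of the set, 1.79 between the highest and lowest group. Its enzyme joins a fatty acid to monoacylglycerol and so feeds diacylglycerol in from outside the glycerol phosphate route. The gene is low in normal mouse liver and is known to be induced in fatty liver. Read at chr1:78534646-78534705 (mm9, plus strand), its levels were -1.47, -0.34 and 0.19 (lowest, median, highest) in fasted livers. They were -2.63, -2.21 and -1.53 in glucose livers, -2.55, -2.33 and -1.58 in fructose livers and -2.08, -1.94 and -1.74 in water livers. Every fasted liver was above every fed liver, and the lowest of them, replicate 2, lay close to the highest glucose liver.

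Mogat1 was 2.90-fold higher in fasted than in water livers (log2 fold change 1.54 ± 0.23, limma adjusted p = 6.7e-06). On the slides it was 1.86, 0.96 and 1.79 higher, the lowest being the slide of fasted replicate 2. A second probe, 1.33 ± 0.42 higher (adjusted p = 0.0127), was well above background on 5 of 6 fasted, 3 of 6 glucose, 2 of 6 fructose and 1 of 6 water arrays. The third probe with this gene name, 81116 bases farther along the chromosome, was above background on no array.

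Dgat1 and Dgat2 encode unrelated enzymes that both make triglyceride from diacylglycerol, and their transcripts moved in opposite directions. DGAT2 is tied to newly made fatty acids and DGAT1 to fatty acids taken up or released in the cell. Dgat1, read by the probe printed above, had levels of 1.59, 1.78 and 1.91 (lowest, median, highest) in fasted livers. They were 0.75, 0.77 and 0.90 in glucose, 0.83, 0.88 and 0.99 in fructose and 0.67, 0.74 and 0.94 in water livers. Fasted livers were well clear of the other 18, which overlapped. The fold was 1.98 for fasted over water (log2 fold change 0.99 ± 0.06), and its limma adjusted p of 5.8e-12 was the lowest of the 10 genes.

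For Dgat2, read at chr7:106302215-106302274 (mm9, minus strand), levels were 7.46, 7.62 and 7.79 (lowest, median, highest) in fasted livers. They were 7.85, 8.18 and 8.25 in glucose livers and 7.62, 8.08 and 8.25 in fructose livers, against 7.88, 7.96 and 8.07 in water livers. Fasted livers were below all glucose and water livers and overlapped 1 fructose liver, replicate 3. Against water the fall was 1.27-fold (log2 fold change -0.34 ± 0.09, limma adjusted p = 0.0026). On the 3 slides it was -0.24, -0.35 and -0.44.

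**Figure D3:**
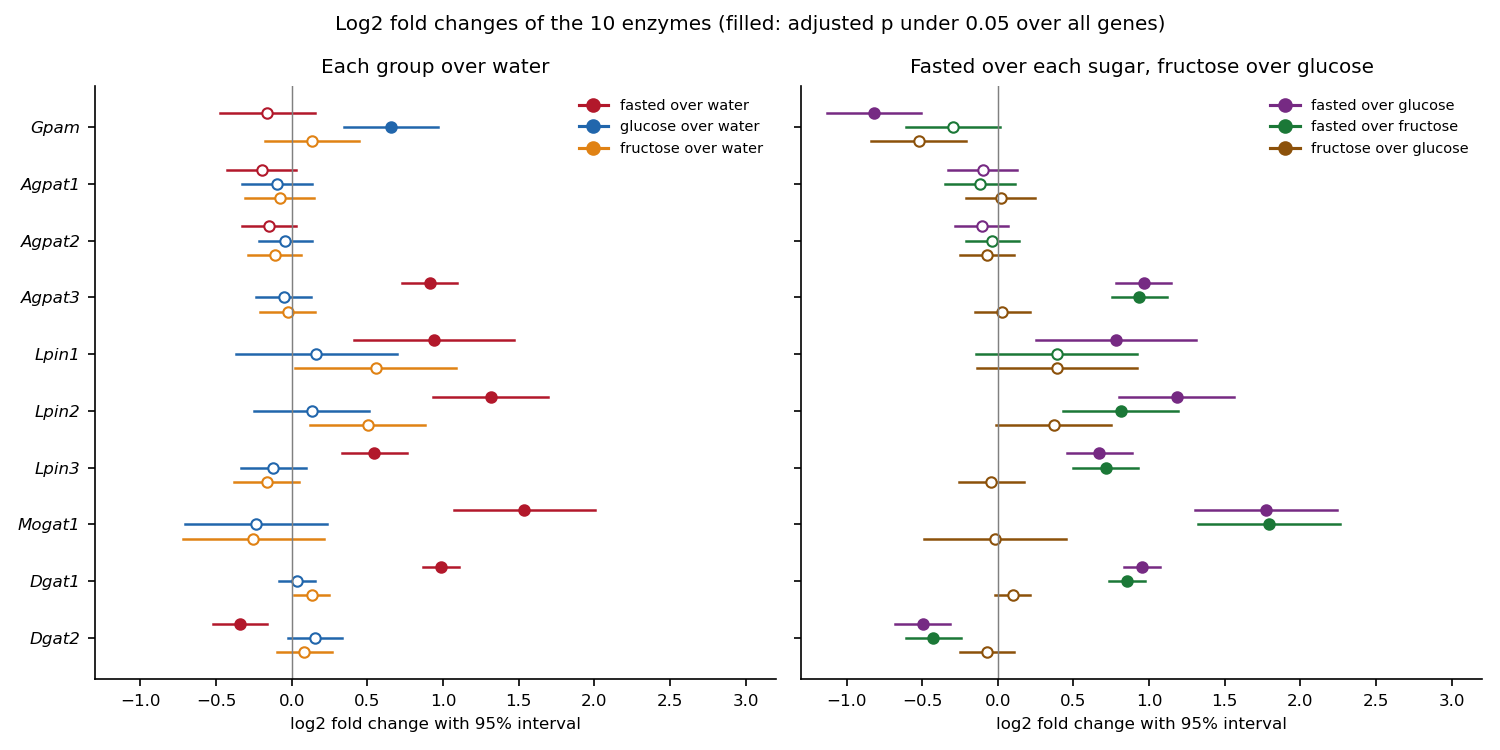
Log2 fold changes with 95% intervals for the 10 genes, in the comparisons with water (left) and between the other groups (right), with filled points for called genes. Mogat1 and Lpin2 have the largest positive values in fasted over water (1.54 and 1.32), Dgat2 is called lower (-0.34), and Gpam is the only filled point among the comparisons of a sugar with water and of the sugars with each other.

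Against sugar-fed livers, fasted livers were again higher in Agpat3, Lpin2, Lpin3, Mogat1 and Dgat1 and lower in Dgat2. Of the 10 genes, 6 were higher and 2 lower in fasted than in glucose livers, where 44.7% of all genes were called (21.7% higher, 23% lower). The 2 lower genes were Gpam (-0.82 ± 0.15, limma adjusted p = 9.8e-05) and Dgat2 (-0.50 ± 0.09, adjusted p = 5.5e-05). In each, fasted and glucose livers did not overlap, a property of 26.1% of all genes in that comparison. The 6 higher genes were Mogat1 (1.77), Lpin2 (1.18), Agpat3 (0.96), Dgat1 (0.95), Lpin1 (0.78) and Lpin3 (0.67). In fasted over fructose livers 5 were higher and 1 lower, with 45.2% of all genes called (22.7% higher, 22.5% lower). Those higher were Mogat1 (1.79), Agpat3 (0.94), Dgat1 (0.86), Lpin2 (0.81) and Lpin3 (0.71), and Dgat2 was lower (-0.43). Gpam was -0.30 ± 0.15 there and not called (adjusted p = 0.119). Its dimmer probe was called lower there, at -0.95 ± 0.23 (limma adjusted p = 0.0017 over all kept probes). On that probe the highest fasted liver (-1.47) lay below the lowest fructose liver (-1.31). All comparisons with fasted livers share the same 6 fasted mice and are not independent.

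Fructose left no gene of the set past the test. Against water, limma called 0 of the 10 genes, with 0.951% of all genes called. That share rests on single arrays, since the 228 genes called became 65 without water replicate 4 and 496 without fasted replicate 2. At an unadjusted p under 0.05 there were 3 of the 10, Lpin1, Lpin2 and Dgat1, in a comparison where 16.2% of all genes were under that level. Their log2 fold changes were 0.55 ± 0.26 for Lpin1, 0.50 ± 0.18 for Lpin2 and 0.13 ± 0.06 for Dgat1. The adjusted p-values were 0.283, 0.168 and 0.251. Each of the 3 differences was positive on all 3 slides, which adds no separate evidence. The 95% interval for Lpin2 ran from 0.12 to 0.88 and that for Lpin1 from 0.02 to 1.08, neither adjusted over all genes.

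No other difference with sugar among the 10 genes was called. With glucose, Lpin1 was 0.16 ± 0.26, Lpin2 0.13 ± 0.18 and Dgat2 0.16 ± 0.09 above water. The remaining glucose over water values lay between -0.24 (Mogat1) and 0.03 (Dgat1). For fructose over glucose, limma called 0 of the 10 genes, and 1 (Gpam) had an unadjusted p under 0.05, against 7.84% of all genes. Lpin1 and Lpin2 were 0.39 ± 0.26 and 0.37 ± 0.18 higher in fructose than in glucose livers, with 95% intervals from -0.14 to 0.92 and from -0.01 to 0.75.

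**Figure D4:**
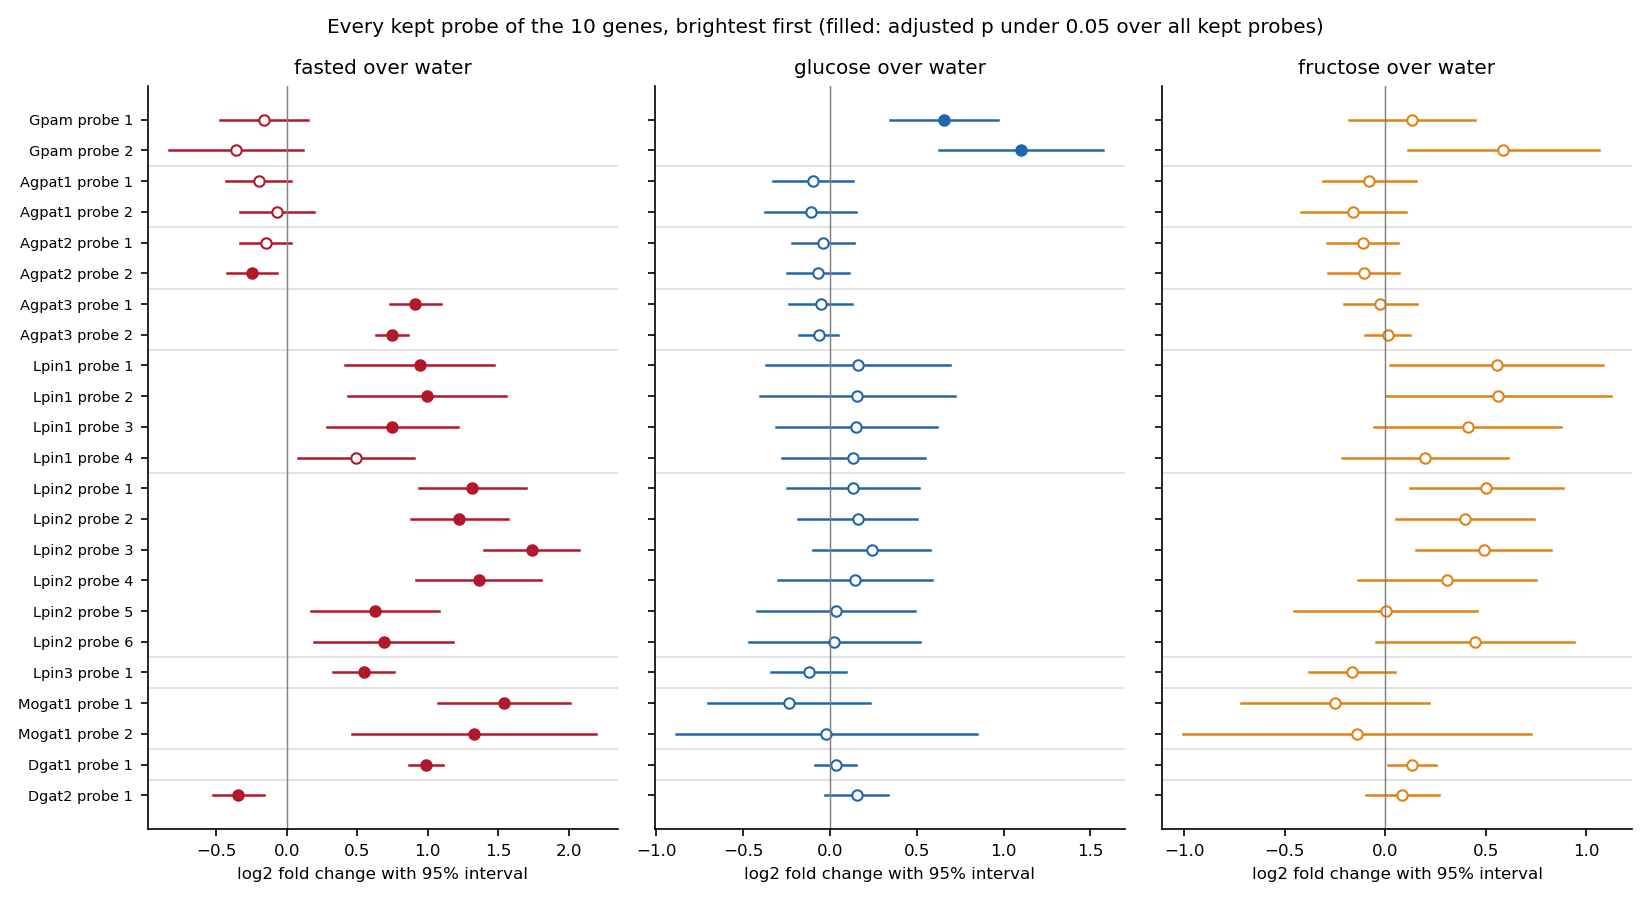
Log2 fold changes with 95% intervals for all 23 kept probes, in order of brightness within a gene, for fasted (left), glucose (middle) and fructose (right) over water, filled where the adjusted p over all kept probes was under 0.05. In the fasted panel every Lpin2, Agpat3 and Mogat1 probe is filled, 3 of 4 Lpin1 probes are, and in the glucose panel the 2 filled points are the Gpam probes.

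The wider pathway was described with 7 lists of neighbouring genes, 59 genes tested in all. In fasted over water livers 19 of the 59 were higher and 18 lower, against 42.6% called among all genes. Their median log2 fold change was 0.0094. In glucose over water 0 were higher and 2 lower, and 11 of 59 had an unadjusted p under 0.05 in the limma fit, against 11.6% of all genes. In fructose over water 0 were higher and 1 lower, with 14 of 59 under that level.

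Among the other glycerol acyltransferases, 3 of 9 were higher and 3 lower in fasted livers (median 0.04). Gpat3, a microsomal glycerol phosphate acyltransferase, had levels of 2.03, 2.82 and 3.01 (lowest, median, highest) in fasted livers, against -1.39, -0.44 and 0.33 in water livers. These did not overlap, and the difference of 3.17 ± 0.24 (limma adjusted p = 4.1e-10) was larger than that of any of the 10 genes. Gpat4, the other microsomal form, was 0.58 ± 0.08 higher in fasted than in water livers. With glucose Gpat4 was lower, by -0.50 ± 0.08 on the log2 scale (adjusted p = 0.00198). Its levels were 5.09, 5.21 and 5.32 in glucose livers, against 5.60, 5.70 and 5.91 in water livers, with no overlap. Gpam, which acts on the same substrate, was higher in those glucose livers. Lclat1, a lysocardiolipin acyltransferase, was 0.62 higher in fasted livers, and Mogat2, the intestinal monoacylglycerol acyltransferase, was -1.02 on the same scale.

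**Figure D5:**
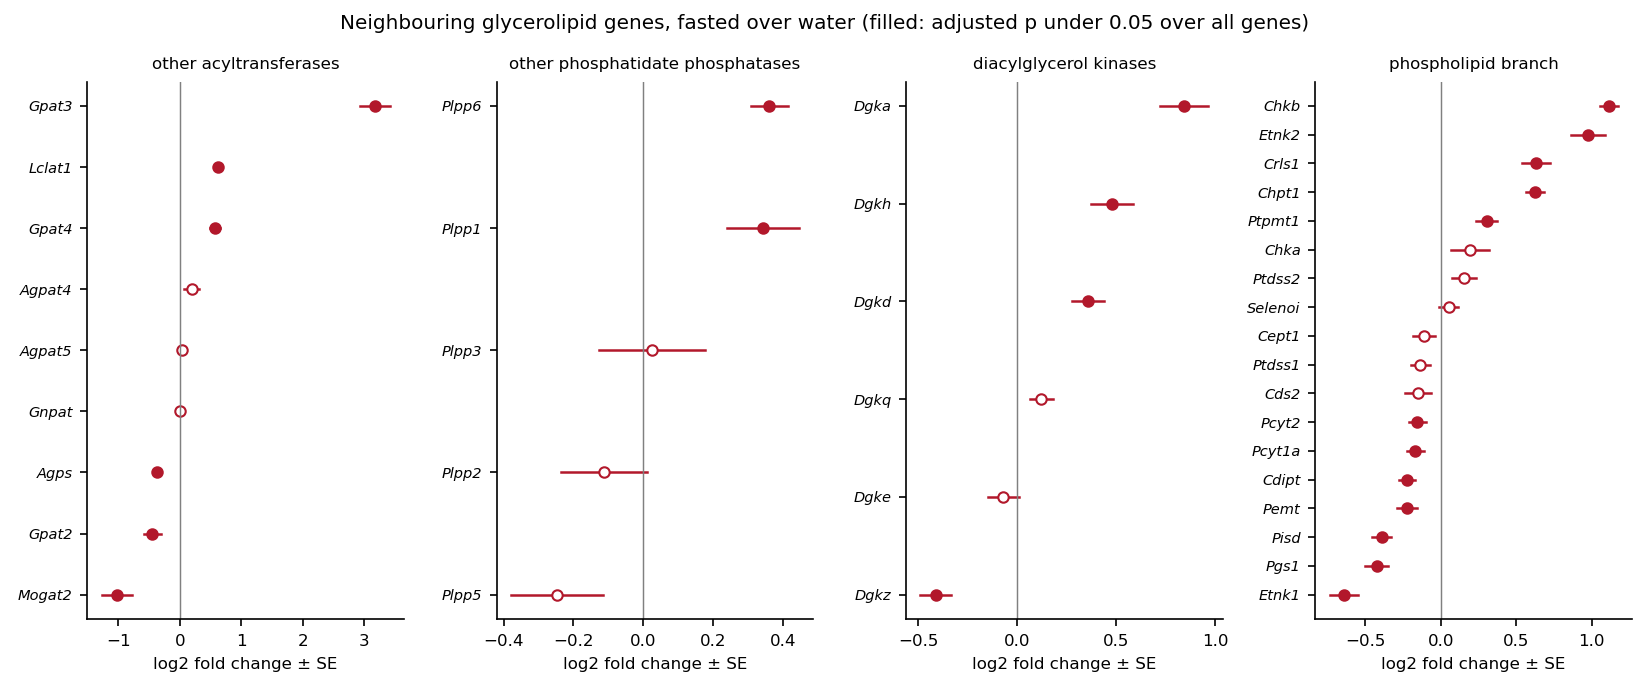
Log2 fold changes for fasted over water with standard errors in 4 lists of neighbouring genes, filled where the adjusted p over all genes was under 0.05. Gpat3 (3.17) and Chkb (1.11) have the largest positive values in their panels, and Mogat2 (-1.02) and Etnk1 (-0.64) the lowest.

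Phosphatidate phosphatases other than lipins showed small changes. Of 5 tested, 2 were higher in fasted livers, Plpp6 (0.36 ± 0.05) and Plpp1 (0.34 ± 0.10), with a median of 0.02. Diacylglycerol kinases turn diacylglycerol back into phosphatidate, and 3 of the 6 tested were higher and 1 lower. Dgka was 0.84 ± 0.12 and Dgkh 0.48 ± 0.11 higher, Dgkd was 0.36 ± 0.08 higher, and Dgkz was -0.41 ± 0.08. Dgkd was not called when all its probes were averaged (0.17). Of 6 lipin and droplet partners, Fitm2, an endoplasmic reticulum protein of lipid droplet formation, was the one called, at 0.77 ± 0.13.

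The phospholipid branch was split, with 5 of 18 tested genes higher and 7 lower in fasted than in water livers (median -0.12). Chkb, a choline and ethanolamine kinase, had levels of 3.30, 3.48 and 3.61 (lowest, median, highest) in fasted livers, against 2.31, 2.36 and 2.45 in water livers. It was 1.11 ± 0.06 higher without overlap. Of the ethanolamine kinases, Etnk2 was 0.98 ± 0.11 higher and Etnk1 was -0.64 ± 0.09. Crls1, the cardiolipin synthase, was 0.63 ± 0.09 higher. With glucose, Chpt1, a cholinephosphotransferase that uses diacylglycerol, was -0.29 ± 0.06 (limma adjusted p = 0.0252), a call lost when any one of 7 arrays was left out (glucose replicates 2, 3 and 6 and water replicates 1, 3, 4 and 5).

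In the list for very low density lipoprotein assembly, 1 of 5 was higher and 2 were lower in fasted livers. Pdia3 and P4hb, both protein disulfide isomerases, were -1.15 ± 0.10 and -0.38 ± 0.09, and Tm6sf2, which is needed to load these particles with lipid, was 0.43 ± 0.10. Of 10 regulators, 4 were higher and 5 lower. Srebf1, the transcription factor SREBP-1 that drives genes of fatty acid synthesis and Gpam, had levels of 2.59, 2.94 and 3.19 in fasted livers, against 6.50, 6.75 and 7.29 in water livers, a difference of -3.86 ± 0.21. Insig1, which holds SREBP in the endoplasmic reticulum, was -2.28 ± 0.18, and Insig2, a related gene, was 3.07 ± 0.12. Ppargc1a, which encodes PGC-1alpha, was 2.57 ± 0.27 higher. With fructose, Nr3c1, the glucocorticoid receptor, was -0.24 ± 0.06 (limma adjusted p = 0.0411), and that call was lost when any one of 11 arrays was left out (fructose replicates 1, 2, 3, 5 and 6 and all 6 water replicates).

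The genes whose centred log2 values were closest to those of a member over the 24 arrays were found for the 3 members with the widest range of group means. For Dgat1 they were Glrx, Optn, Atg2a, Chkb and Cluh, with mean absolute differences from 0.071 to 0.091. For Lpin2 they were Dnmbp, Tcp11l2, Tmem82, Itgb3 and Susd6, from 0.187 to 0.220. For Mogat1 they were Tmprss9, Bhlhb9, Hsd17b10, Hykk and Insl6, from 0.195 to 0.258. All 15 had their highest group mean in fasted livers, which follows from the way they were picked. Chkb, named above, is among the genes closest to Dgat1.

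Of 42 tested markers in 9 cell type lists, 12 were higher and 9 lower in fasted than in water livers, against 42.6% called among all genes. Of 6 adipocyte markers tested, 2 were called higher, Fabp4 (0.39) and Adipoq, and 4 were not called. Adipoq was well above background on 6 of 6 fasted arrays, on no glucose or fructose array and on 1 of 6 water arrays. It passed the filter only through the fasted arrays, so its call is no support and no size is given. The summed level of the 6 adipocyte markers was 1.87 to 2.77 in fasted, 1.68 to 1.94 in glucose, 1.56 to 2.27 in fructose and 1.65 to 2.36 in water livers. Of 5 enterocyte markers 3 were tested, and Apoa4 (2.74) and Fabp2 (0.75) were higher in fasted than in water livers. Vil1 was well above background on no fasted array, 2 of 6 glucose, 6 of 6 fructose and 2 of 6 water arrays. It was called lower in fasted than in fructose and glucose livers. It passed the filter only with its fructose arrays, so these calls are no support. The summed level of the 3 was 6.83 to 8.68 in fasted, 6.25 to 6.77 in glucose, 6.68 to 7.24 in fructose and 6.14 to 6.27 in water livers. Apoa4 was also higher in fructose than in water livers (1.37, limma adjusted p = 0.00422). The other enterocyte markers, Lct and Alpi, were not above background on enough arrays to be tested. Among endothelial markers 3 of 5 were higher and 1 lower in fasted than in water livers, and 2 of 5 Kupffer cell markers were higher. Stellate cell markers were split, with 1 of 6 higher and 3 lower, and 3 of 5 bile duct markers were lower. No tested muscle or pancreatic acinar marker was called between fasted and water livers, with 2 tested of each. The part of these cell types in the results for the 10 genes was not tested. Of 8 hepatocyte markers, Tat (1.27) and Cps1 (1.08) were higher and Fabp1 and Ttr (both -0.25) lower in fasted than in water livers. The 8 summed to 12.16 to 12.26 in fasted, 12.04 to 12.15 in glucose, 11.95 to 12.07 in fructose and 12.08 to 12.35 in water livers.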

How the data were processed

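Total liver RNA of 24 mice was labelled with Cy3 and hybridised to 1-colour Agilent mouse arrays. Per the file headers, the deposited intensity values came from Agilent Feature Extraction 10.10.1.1, which subtracted background and removed spatial trends within an array. The authors also deposited a series table in log2 units. Its normalization is not given in the sources used here, and it served as an alternative.

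Control spots and outlier-flagged spots were left out, log2 processed intensity had the 75th percentile of its array subtracted, and replicate spots of each probe were then averaged. Probes had to be well above background on at least 6 of 24 arrays, which kept 36230 of 56605. A gene was its brightest kept probe. Genes were named through the RefSeq table of GRCm38.p6, and the 10 genes by the name in the array files. Coordinates of probes come from the array files, which give them on mm9. No annotation of that build was used here, so exon or UTR positions are not given. No spot of the 10 genes was saturated.

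One limma fit (version 3.58.1, R 4.3.3, package data.table version 1.17.8) of 4 group means over all 24 arrays gave 6 comparisons, tested over 23966 genes at an adjusted p under 0.05, with 95% intervals. Only the limma fit was tested on simulated data, not the scaling, filter or choice of probe before it. Precision is limited by having 6 arrays in a group. The named genes are all 10 members, up to 4 called genes per list and comparison with the largest change first, and the 5 genes most like each of 3 members. The members and lists were chosen with earlier results of these data known, so they are no independent evidence. Alternatives were other scalings and backgrounds, other filters and probe rules, slide and replicate blocks, array weights, a trended prior, and each array left out.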

Additional observations from a re-analysis of the deposited data

Results flagged for a closer look

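In 3 of the 40 groups of 6 livers tested (10 genes in 4 groups), 1 liver lay farther from its neighbours than Dixon's test allows for 6 samples, and chance alone flags about 1 group in 20. For Agpat2 in water livers, replicate 4 was highest at 7.44, with the next at 7.31. For Lpin3 in fasted livers, replicate 2 was lowest at -0.0196, with the next at 0.23. For Dgat2 in fructose livers, replicate 3 was lowest at 7.62, with the next at 8.06. Without fasted replicate 2, Lpin3 was still called higher in fasted than in water livers. Without fructose replicate 3, Dgat2 was still called lower in fasted than in fructose livers, and Gpam was also called lower there (-0.38, limma adjusted p = 0.0486).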

How the results depend on the processing

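The results were recomputed under 12 other settings and with each of the 24 arrays left out. Of the counts of called genes in the set and the lists recomputed under the other settings, 304 stayed within 1.5 times the reported count and 20 did not. For glucose over water the 10 genes gave 0 calls with no filter on dim probes, and 0 to 1 with single arrays left out. For fasted over fructose they gave 8 under quantile normalization, 7 in the deposited table and with the mean of probes, and 6 to 7 with single arrays left out. Fasted over water gave 8 and fasted over glucose 9 under quantile normalization and in the deposited table. In the lists, glucose over water gave 1 lipin and droplet partner with array weights (0 to 1 with single arrays left out), 2 phospholipid genes under quantile normalization, the deposited table and array weights and 0 with no filter or the mean of probes (0 to 1 with single arrays left out), and 1 lipoprotein gene under quantile normalization and array weights. Fructose over water gave 1 phospholipid gene under quantile normalization and in the deposited table. It gave 0 regulators under quantile normalization, no filter, the mean of probes and the replicate block (0 to 1 with single arrays left out). It gave 1 lipoprotein gene under quantile normalization, in the deposited table and with array weights, and 2 with normexp and with a trended prior (0 to 1 with single arrays left out). The cause of these changes was not tested.

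Changes of sign were confined, among the named genes and these settings, to values that were not called in the reported fit or under the setting that turned the sign. Agpat2 in glucose over water was 0.0155 under quantile normalization and in fasted over fructose 0.0078 with array weights. Agpat3 in fructose over water was 0.0071 under quantile normalization and 0.0128 in the deposited table. Agpat1 in fructose over glucose was -0.0085 in the deposited table and -0.0148 with the mean of probes. With single arrays left out, Lpin2 in glucose over water ran from -0.0413 to 0.223 and Agpat3 in fructose over water from -0.0680 to 0.0247. In fructose over glucose, Agpat1 ran from -0.0243 to 0.0731, Agpat3 from -0.0152 to 0.0776, Lpin3 from -0.0847 to 0.0260, Dgat2 from -0.125 to 0.0148 and Mogat1 from -0.135 to 0.109. Agpat1 in fasted over glucose ran from -0.161 to 0.0060, and Agpat2 in fasted over fructose from -0.0876 to 0.0143. Agpat2, not called in the reported fit, was called lower in fasted livers under 2 settings. In the deposited table it was -0.30 against water (adjusted p = 0.00165), -0.29 against glucose (0.00181) and -0.23 against fructose (0.0102). Under quantile normalization it was -0.28, -0.29 and -0.23 in the same order (0.00679, 0.00432 and 0.0224). Gpam in fasted over fructose was called under quantile normalization (-0.37) and with the mean of its probes (-0.62).

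Over all genes, glucose over water called 216 genes, against 578 with array weights, 358 with a trended prior and 131 with no filter. Leaving out 1 array moved it past 1.5 times to 115 and 123 (without glucose replicates 1 and 2), 113 and 133 (without water replicates 4 and 5) and 344 (without fasted replicate 2). Fructose over water called 228, against 581 with normexp, 482 with array weights, 377 with a trended prior, 367 in the deposited table and 83 with no filter. It was 74, 81, 445 and 79 without fructose replicates 1, 3, 4 and 6, 139, 105, 65 and 79 without water replicates 1, 2, 4 and 6, and 496 without fasted replicate 2. Fructose over glucose called 0, against 6 with array weights, 4 with normexp, 2 with the mean of probes and with a trended prior, 1 with no filter, and 0 to 2 with single arrays left out. With the replicate block the 10 genes gave 7 calls in fasted over water, 1 in glucose over water, 0 in fructose over water, 8 in fasted over glucose and 6 in fasted over fructose, the same counts as without it. Deviations correlated at a mean of 0.0334 in same-numbered arrays (9 of 36 pairs above 0.1) and -0.0067 in others (25 of 180). Mouse pairing was not settled. Signal over background limits the second Mogat1 probe and Adipoq.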
